A study of Rattus norvegicus with 90 samples.

Results

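Among the 40071 rat transcripts quantified in this study, 2 were followed through every organ, dose and time: ENSRNOT00000000037, which is 4385 bases long, and ENSRNOT00000000047, which is 3711 bases long. They were selected on measured values, because both had lower counts in the liver 24 h after thioacetamide, more so after the higher dose, and not at 8 h. The liver values by dose and time are therefore given as a description, without a test. Tests were run in kidney and heart, between organs, and on how the 2 transcripts varied together within groups, liver included. The reference tables used here do not pair these Ensembl identifiers with genes, so no gene name, function, position or sequence is given for either transcript.

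Thioacetamide is a model hepatotoxicant. It is not itself reactive: hepatic oxidases convert it to S-oxides that bind covalently to proteins and lipids, and the cells around the central veins of the liver lobule, which are rich in these enzymes, are injured first. Whole liver RNA from such animals is a mixture of hepatocytes, other resident cells and cells that enter with the injury. In these bulk samples, fewer cells of a type and less RNA per cell cannot be told apart.

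The rats were males of the Sprague-Dawley strain, bought at 10 weeks of age and fitted with a jugular catheter before the experiment. Each received a single intraperitoneal injection of saline (vehicle, 3 ml/kg) or of thioacetamide at 25 mg/kg (low dose) or 100 mg/kg (high dose), and was killed 8 or 24 h later. The 8-h animals were without food throughout and the 24-h animals for the last 8 h. Liver, kidney and heart gave 5 poly-A libraries for each organ, dose and time, 90 in all, and kidney and heart were powdered whole. Total estimated counts lay between 16332764 and 36303248 per library. The organs were taken from the same animals. Library numbers in kidney and heart mostly equal a liver number of the same dose and time plus 30 and plus 60, but the labels do not say what the numbers mark, so organs were treated as separate samples, and a fit with matched numbers as a block changed no call between organs. No gene names were at hand, so the labelled organs were not checked against marker genes.

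A pair of libraries has to be described before any result. MS-1, labelled liver, vehicle, 24 h, and MS-9, labelled liver, low dose, 8 h, held practically the same counts: of 15797 transcripts that reached 10 counts in one or both, 99.96% matched to within 1 count, whereas the closest of the other 4004 pairs of libraries reached 3.82%. Both listed 395 counts for ENSRNOT00000000037 and 6086.09 for ENSRNOT00000000047. MS-1 was left out, which leaves 4 liver vehicle libraries at 24 h, and values with MS-1 kept or MS-9 removed are given where they bear on a result. The TMM factor, which scales a library so that most transcripts match between libraries, was between 0.98 and 1.04 in the liver low-dose 8-h libraries, MS-9 included, and between 0.72 and 0.86 in the other liver vehicle libraries.

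Both transcripts were measured well above the counting floor in the liver. Estimated counts ranged from 181 to 748 for ENSRNOT00000000037 and from 2797 to 11218 for ENSRNOT00000000047 over 29 liver libraries. All 90 estimated counts of ENSRNOT00000000037 were whole numbers within 1e-06, which leaves no sign of read pairs divided between it and another target. For ENSRNOT00000000047, only 2 of 90 were whole, and the largest distance from a whole number was 0.49, close to the most possible. Fractional counts are a sign of read pairs divided between it and another target, and the share divided was not examined. On TPM, which is scaled by length and can be compared between transcripts, the mean in liver vehicle libraries was 4.57 ± 1.01 (SD, n = 9) for ENSRNOT00000000037 and 89.99 ± 15.04 (SD, n = 9) for ENSRNOT00000000047. These placed them above 72.8% and 96.5% of the transcripts with a TPM above 0.

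At 8 h, liver levels of ENSRNOT00000000037 were much the same in all groups. Vehicle livers had TMM-scaled CPM (transcript counts on a common library size, corrected by the TMM factor) of 24.0, 21.8, 18.5, 22.2 and 28.7. Low-dose livers had 22.6, 23.002, 22.3, 22.3 and 20.9, and high-dose livers 20.04, 21.3, 20.9, 23.5 and 23.005. Every treated value fell inside the vehicle range. For ENSRNOT00000000047 the 8-h vehicle livers had CPM of 301, 402, 308, 399 and 364. Low-dose livers had 348, 369, 373, 438 and 320, and high-dose livers 365, 304, 311, 309 and 357. The groups overlapped here too, with 1 low-dose liver above all vehicle livers. The fitted log2 differences from vehicle were -0.05 (SE 0.10) and 0.06 (SE 0.12) after the low dose and -0.05 (SE 0.11) and -0.08 (SE 0.11) after the high dose, for ENSRNOT00000000037 and ENSRNOT00000000047 in that order. Without MS-9 the low-dose values were -0.06 (SE 0.11) and 0.07 (SE 0.13).

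At 24 h, ENSRNOT00000000037 had CPM of 23.7, 22.9, 22.5 and 22.4 in vehicle livers, 11.05, 11.01, 12.1, 14.2 and 11.6 in low-dose livers, and 8.98, 8.87, 9.03, 7.24 and 8.90 in high-dose livers. The 3 groups did not overlap: every low-dose value was below every vehicle value, and every high-dose value below every low-dose value. The group mean was 1.91-fold lower than vehicle after the low dose, 2.66-fold lower after the high dose, and 1.39-fold lower after the high than after the low dose. The fitted log2 difference from vehicle was -0.94 (SE 0.10, 95% interval -1.16 to -0.73) after the low dose and -1.46 (SE 0.09, 95% interval -1.66 to -1.25) after the high dose. The intervals of the liver contrasts do not allow for the choice of the members on these values, and are not read as tests.

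ENSRNOT00000000047 had 24-h CPM of 356, 499, 438 and 408 in vehicle livers, 208, 217, 233, 188 and 211 in low-dose livers, and 132, 98.4, 182, 200 and 86.4 in high-dose livers. All treated livers were below all vehicle livers, but the 2 doses overlapped, since 1 high-dose liver (MS-91, 200) lay above the lowest low-dose liver (188). High-dose livers were also the most spread, 140 ± 49.96 (SD, n = 5) against 211 ± 16.3 (SD, n = 5) at the low dose. The group mean was 2.01-fold lower than vehicle after the low dose and 3.04-fold lower after the high dose. The fitted log2 difference was -1.02 (SE 0.11, 95% interval -1.26 to -0.78) and -1.66 (SE 0.25, 95% interval -2.21 to -1.10). Over the 18937 transcripts that passed the count filter in liver, 12.2% were likewise lower in every low-dose than in every vehicle liver and 19.5% in every high-dose than in every vehicle liver. Since the rule that chose the members used these contrasts, nothing is read from the comparison.

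With MS-1 kept among the 24-h vehicle livers, the fitted differences were -0.92 and -0.95 after the low dose and -1.35 and -1.504 after the high dose. Vehicle livers themselves differed between 24 and 8 h by -0.01 (SE 0.11) for ENSRNOT00000000037 and 0.26 (SE 0.13, 95% interval -0.04 to 0.56) for ENSRNOT00000000047.

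**Figure D1:**
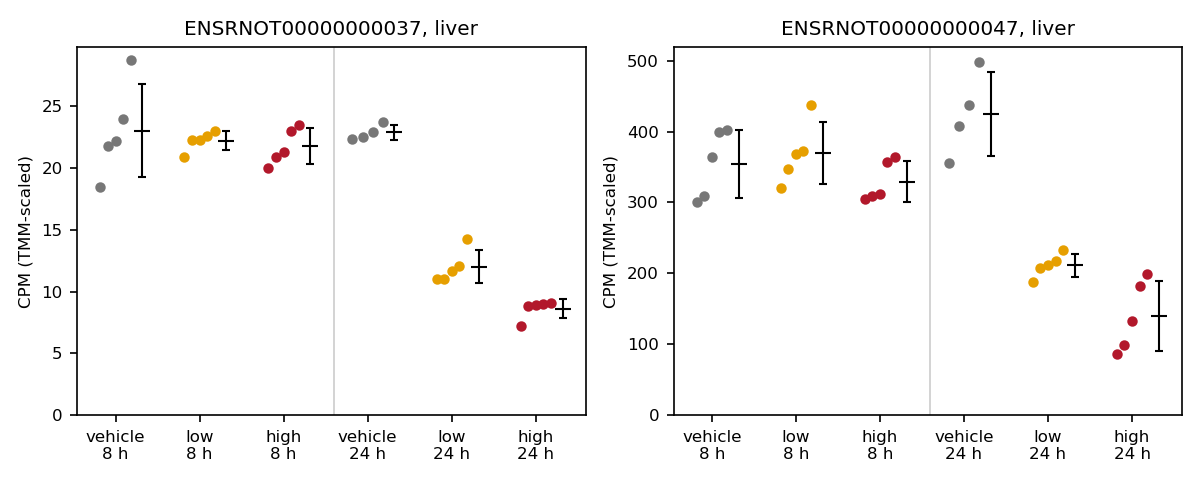
TMM-scaled CPM of each transcript in each liver library (points), by dose and hours after injection, with the mean and SD of the group (black bar); library MS-1 is left out, so vehicle at 24 h has 4 points. The 8-h groups overlap, and at 24 h all treated livers sit below all vehicle livers, from 22.4 to 23.7 CPM in vehicle to 7.24 to 9.03 CPM after the high dose for ENSRNOT00000000037.

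The size of the 24-h differences depended strongly on how libraries were scaled. On deposited TPM, ENSRNOT00000000037 had a median of 3.94 (range 3.57 to 5.44) in the vehicle livers at 24 h. It had a median of 3.73 (3.49 to 4.54) after the low dose and of 3.40 (2.18 to 3.95) after the high dose, so the groups overlapped. ENSRNOT00000000047 had TPM of 95.1 (77.6 to 98.7), 80.7 (71.2 to 87.7) and 55.9 (40.7 to 81.7) in the same order, which also overlapped. The log2 ratios of mean TPM to vehicle were -0.14 and -0.19 after the low dose and -0.38 and -0.60 after the high dose, and those of unscaled CPM were -0.42 and -0.48, and -0.59 and -0.82.

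The whole distribution shifted with the scale. The median log2 ratio over all transcripts with a value (18661 to 18736) was 0.04 after the low dose and 0.09 after the high dose on TMM-scaled CPM. It was 0.55 and 0.90 on unscaled CPM and 0.84 and 1.12 on TPM. Relative to that median, the low-dose difference was between -0.98 and -0.97 for ENSRNOT00000000037 and between -1.04 and -1.03 for ENSRNOT00000000047 on all 3 scales. The high-dose difference was between -1.498 and -1.493 for ENSRNOT00000000037 and between -1.72 and -1.69 for ENSRNOT00000000047. Between 7.28% and 9.81% of transcripts lay below the members in either 24-h contrast, whichever of the 3 scales was used. For a given transcript the scales differ almost only by a factor per library, which the median carries too. Agreement between scales after taking off the median was therefore largely fixed in advance, and nothing is read from it. At 8 h the same medians were 0.02 and -0.02 on TMM-scaled CPM and 0.33 and 0.20 on TPM, and both transcripts stayed within 0.09 of the median.

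Library composition moved with dose in the liver at 24 h. The 10 most abundant transcripts of a library took 24.7% to 27.2% of transcript counts in vehicle livers, 21.1% to 22.4% after the low dose and 17.5% to 21.7% after the high dose. TMM factors were 0.72 to 0.86, 1.12 to 1.18 and 1.22 to 1.56 in that order. The share of counts on genomic intervals, which enter TPM but not CPM here, was 7.64% to 25.0%, 5.10% to 7.02% and 6.17% to 14.8%. In the high-dose group, the values 21.7%, 1.22 and 14.8% all belonged to MS-91, a library numbered above 90. The part of library composition in the members' differences was not tested.

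**Figure D2:**
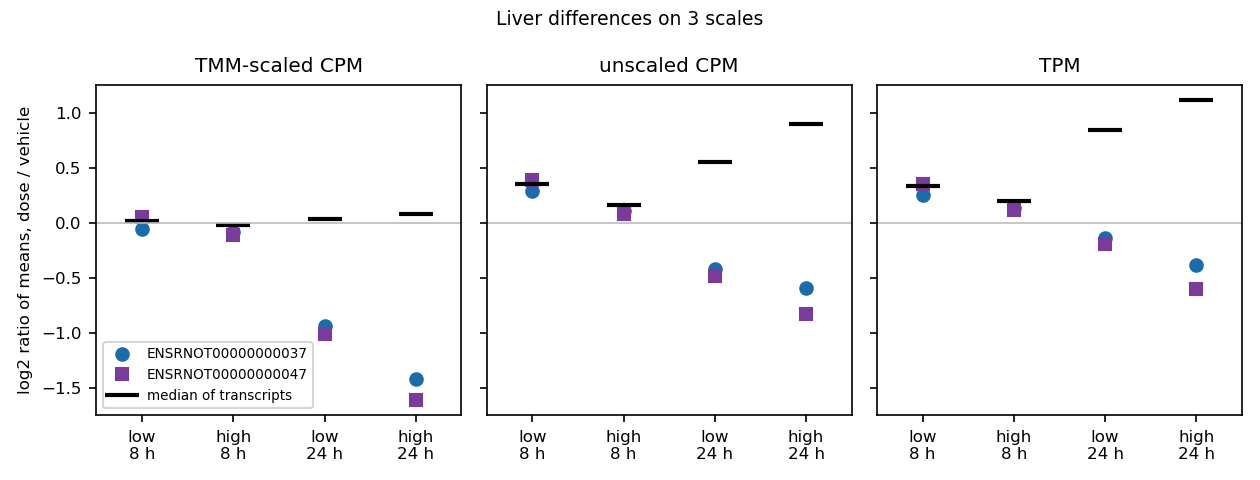
Log2 ratio of group means, dose over vehicle, in liver at 8 and 24 h for both transcripts (symbols) and the median of all transcripts that passed the count filter (black bars), on TMM-scaled CPM, unscaled CPM and TPM. The distance from the symbols to the bar at 24 h changes little between the panels, while the position of the bar moves from 0.04 and 0.09 up to 0.84 and 1.12. That distance is largely fixed in advance, since the scales differ almost only by a factor per library.

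A ratio of the members within a library does not depend on library scaling. Per length, ENSRNOT00000000047 was 14.9 to 21.9 times as abundant as ENSRNOT00000000037 in vehicle livers at 8 h, with a median of 19.9, and 17.8 to 25.8 times (median 22.4) at 24 h. It was 15.7 to 23.4 times (median 22.4) after the low dose and 11.6 to 32.8 times (median 17.5) after the high dose at 24 h. The ratio spread more widely in the last group, with an SD of 0.62 on the log2 scale against 0.22 in the 24-h vehicle livers. The lowest and highest libraries of that group for one transcript were not those for the other: MS-91 had the lowest CPM of ENSRNOT00000000037 (7.24) and the highest of ENSRNOT00000000047 (200).

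Heart had the lowest level of both transcripts. In vehicle rats the mean TPM of ENSRNOT00000000047 was 89.99 ± 15.04 (SD, n = 9) in liver, 67.03 ± 11.5 (SD, n = 10) in kidney and 0.734 ± 0.235 (SD, n = 10) in heart. The level in heart was below that in either other organ in every library. ENSRNOT00000000037 had 4.57 ± 1.01 (SD, n = 9), 5.91 ± 0.585 (SD, n = 10) and 1.03 ± 0.158 (SD, n = 10) TPM, so that liver and kidney were close and heart was again lowest. Per length, ENSRNOT00000000047 was 7.83 to 13.7 times as abundant as ENSRNOT00000000037 in vehicle kidneys, but only 0.433 to 1.22 times in vehicle hearts.

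In vehicle animals at 8 h, edgeR's quasi-likelihood test on the estimated counts, with Benjamini-Hochberg adjustment over 19836 transcripts, placed ENSRNOT00000000047 higher in liver than in heart by 7.63 on the log2 scale (SE 0.25, adjusted p = 5.58e-13). In kidney it was higher than in heart by 6.23 (SE 0.24), and in liver higher than in kidney by 1.40 (SE 0.19, adjusted p = 9.32e-06). ENSRNOT00000000037 was higher in liver than in heart by 2.80 (SE 0.13) and in kidney than in heart by 2.09 (SE 0.12), and all 5 of these values were called. A call needed an adjusted p of at most 0.01 and a difference of at least 0.866 on the log2 scale, which is the limit of 0.60 on the natural-log scale. Of all transcripts, 50% were called between liver and heart, 42.4% between kidney and heart, and 38.4% between the liver and the kidney. The rule also used the 8-h vehicle livers, and a fall can be seen only in a transcript present in liver. The choice therefore favours high liver levels, and the p-values of the comparisons with liver are not independent of it. Those p-values and calls are given as a description only. The liver minus kidney difference of ENSRNOT00000000037 was 0.70 (SE 0.12, edgeR adjusted p = 8.68e-05), under the size limit and not called, and on log2(TPM + 1) it had the other sign, -0.24 (SE 0.14, limma adjusted p = 0.125). That of ENSRNOT00000000047 was 0.40 (SE 0.15, limma adjusted p = 0.0248) on log2(TPM + 1) and no longer called. The median over all transcripts in that contrast was -0.11 on counts and -0.65 on log2(TPM + 1), so the order of liver and kidney depends on the scale for ENSRNOT00000000037, while ENSRNOT00000000047 was higher in liver on both scales.

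Over the 18 groups, the order of mean TPM for ENSRNOT00000000037 ran from kidney after the low dose at 8 h (8.36 ± 0.91, SD, n = 5) through the other kidney groups and the 8-h livers to the 24-h high-dose livers (3.25 ± 0.66, SD, n = 5) and then the 6 heart groups (1.01 to 1.22). For ENSRNOT00000000047 it ran from liver after the low dose at 8 h (113 ± 12.3, SD, n = 5) to kidney after the low dose at 24 h (59.3 ± 8.15, SD, n = 5) and the 6 heart groups (0.66 to 0.89). Of the 17 pairs of neighbours in each order, 16 overlapped in their ranges; the exception in each was the step down to heart.

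**Figure D3:**
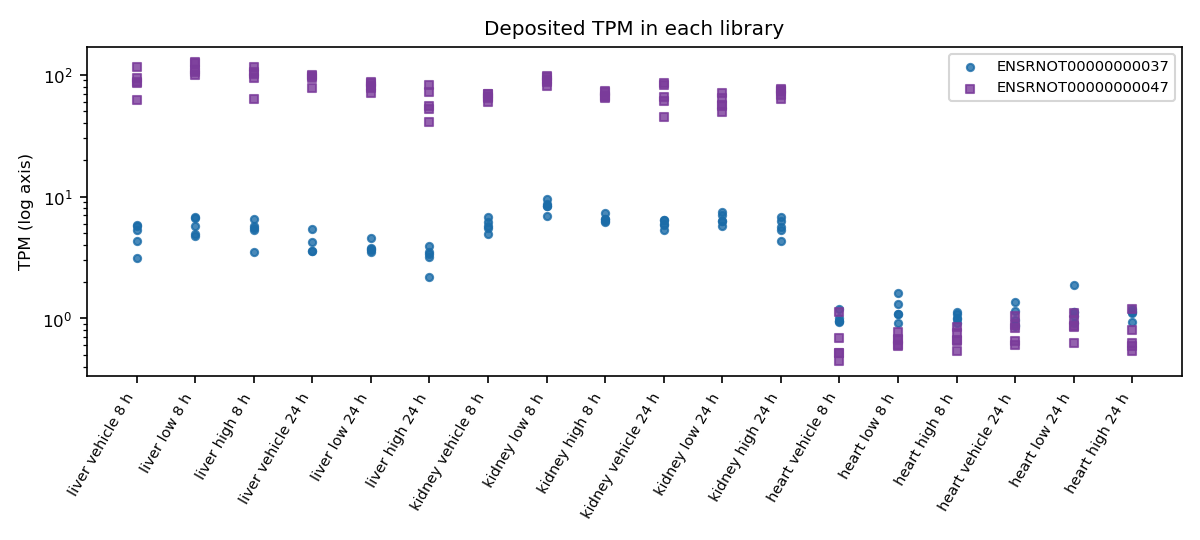
Deposited TPM (log axis) of both transcripts in every library of the 18 groups, without MS-1. ENSRNOT00000000047 lies between 40.7 and 127 TPM in liver and between 45.4 and 97.97 TPM in kidney, and the transcripts meet near 1 TPM in heart.

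Kidney and heart, which the rule did not use, showed no call for either transcript in any of 8 comparisons of a dose with vehicle. Of these 16 values, 3 had an unadjusted edgeR p under 0.05, all in kidney, and DESeq2 called 0. At 8 h in kidney, ENSRNOT00000000037 had CPM of 26.6, 23.5, 29.3, 23.8 and 23.7 in vehicle kidneys, 35.5, 27.9, 33.2, 31.3 and 35.97 after the low dose, and 28.8, 28.9, 28.6, 28.2 and 28.9 after the high dose. Low-dose kidneys were mostly above vehicle, and only the lowest of them (27.9) lay under the highest vehicle value (29.3). ENSRNOT00000000047 had 228, 239, 264, 251 and 227 in vehicle kidneys, 309, 296, 259, 284 and 341 after the low dose, and 245, 270, 242, 252.1 and 251 after the high dose. Again 1 low-dose kidney (259) lay inside the vehicle range.

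The fitted log2 differences after the low dose at 8 h were 0.37 (SE 0.10, 95% interval 0.14 to 0.60, edgeR adjusted p = 0.145) for ENSRNOT00000000037 and 0.30 (SE 0.09, 95% interval 0.10 to 0.50, edgeR adjusted p = 0.176) for ENSRNOT00000000047. Neither was called, where 0.218% of 18829 transcripts were. Over the 8 settings that kept all libraries, the adjusted p ranged from 0.0309 to 0.220 and from 0.0264 to 0.234. On TPM the ranges of the 2 groups did not overlap for either transcript, 6.94 to 9.47 against 4.89 to 6.81 for ENSRNOT00000000037 and 80.3 to 97.97 against 59.4 to 69.97 for ENSRNOT00000000047, which was so, in the upward direction, for 5.71% of transcripts. After the high dose at 8 h the differences were 0.18 (SE 0.09, edgeR adjusted p = 0.245) and 0.06 (SE 0.07, edgeR adjusted p = 0.643), with 1.49% of transcripts called.

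The low and high doses at 8 h were set against each other directly in kidney, a comparison added after the values were seen. Low dose exceeded high dose by 0.20 (SE 0.08, edgeR adjusted p = 0.162) for ENSRNOT00000000037 and by 0.25 (SE 0.07, edgeR adjusted p = 0.0908) for ENSRNOT00000000047. Neither was called, with 0.484% of transcripts called.

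At 24 h the kidney values of ENSRNOT00000000037 were 24.5, 27.4, 28.1, 26.1 and 28.2 CPM in vehicle, 22.3, 26.7, 25.7, 23.4 and 32.5 after the low dose, and 24.6, 24.6, 21.9, 20.3 and 21.7 after the high dose. The 2 highest high-dose kidneys (24.6) met the lowest vehicle kidney (24.5), and the other 3 lay below all vehicle kidneys. Their fitted difference was -0.27 (SE 0.10, 95% interval -0.48 to -0.06, edgeR adjusted p = 0.0891), not called, with 4.19% of transcripts called. After the low dose it was -0.04 (SE 0.11, edgeR adjusted p = 0.915), with 0.0593% of transcripts called. ENSRNOT00000000047 had 161, 216, 315, 275 and 324 CPM in the 24-h vehicle kidneys, the widest range of any kidney group. It had 160, 210, 173, 201 and 243 after the low dose and 245, 232, 245, 250 and 233 after the high dose. The differences were -0.39 (SE 0.19, 95% interval -0.80 to 0.03, edgeR adjusted p = 0.468) and -0.12 (SE 0.16, edgeR adjusted p = 0.691).

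Whether the kidney effect differed between times was tested as an interaction. After the high dose the 24-h effect on ENSRNOT00000000037 was below the 8-h effect by -0.44 (SE 0.12, 95% interval -0.68 to -0.19, edgeR adjusted p = 0.0593), not called at 0.01, with 0.867% of transcripts called. DESeq2 gave -0.45 with an adjusted p of 0.00324 and called it, and the range over the 6 settings was 0.00324 to 0.418. After the low dose the interactions were -0.43 (SE 0.15, edgeR adjusted p = 0.759) and -0.71 (SE 0.21, 95% interval -1.15 to -0.26, edgeR adjusted p = 0.612). In that contrast edgeR called 0% of 19741 transcripts, 965 had an unadjusted p under 0.05, and DESeq2 called 29, without either member. The interaction for ENSRNOT00000000047 after the high dose was -0.17 (SE 0.18, edgeR adjusted p = 0.648). The 8 kidney libraries numbered above 90 were found in all 6 groups but unevenly, with MS-98, MS-101 and MS-102 all among the high-dose 8-h kidneys. Number and group are thus partly confounded there. A term for these libraries left all kidney calls as they were.

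Heart held few reads of either transcript, 60 to 144 counts of ENSRNOT00000000037 and 31.3 to 114 of ENSRNOT00000000047 per library, and the intervals were wide. ENSRNOT00000000037 had median CPM of 4.40 (range 4.23 to 5.09), 4.62 (3.88 to 6.81) and 4.43 (4.03 to 5.18) at 8 h in vehicle, low-dose and high-dose hearts. At 24 h the medians were 4.21 (3.70 to 5.59), 5.03 (4.33 to 7.08) and 4.96 (3.94 to 5.15). ENSRNOT00000000047 had 1.93 (1.84 to 4.48), 2.38 (2.13 to 2.78) and 2.44 (1.90 to 3.41) at 8 h and 2.87 (2.10 to 4.32), 3.496 (2.05 to 4.35) and 2.23 (1.93 to 4.61) at 24 h. All dose groups overlapped with their vehicle group.

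The 8 fitted heart differences lay between -0.09 and 0.21, with SE of 0.11 to 0.17 for ENSRNOT00000000037 and 0.25 to 0.28 for ENSRNOT00000000047, and the lowest edgeR adjusted p was 0.775. At 24 h after the high dose the 95% intervals were -0.21 to 0.38 and -0.71 to 0.53. The difference from liver at the same dose and time was not tested, because the rule had used the liver contrast. Across hearts, edgeR called 0% of transcripts after the low dose at 8 h (696 with an unadjusted p under 0.05, 1 by DESeq2) and 0% at 24 h (1624, and 8 by DESeq2). It called 0.0171% and 0.922% after the high dose at 8 and 24 h. No heart interaction was called for either transcript. EdgeR called 0% of transcripts in the low-dose interaction (1116 with an unadjusted p under 0.05, 4 by DESeq2) and 0.00539% in the high-dose one.

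Vehicle animals at 24 h differed from those at 8 h in neither organ by a called value. The log2 differences were 0.08 (SE 0.10) and 0.09 (SE 0.17) in kidney and -0.01 (SE 0.13) and 0.25 (SE 0.29) in heart, with edgeR adjusted p of at least 0.963. The heart value of ENSRNOT00000000047 moved between 0.074 without MS-64 and 0.55 without MS-89 (edgeR adjusted p = 0.682), and neither was called. EdgeR called 0% of transcripts in kidney (334 with an unadjusted p under 0.05, 0 by DESeq2) and 0% in heart (918, and 5 by DESeq2).

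**Figure D4:**
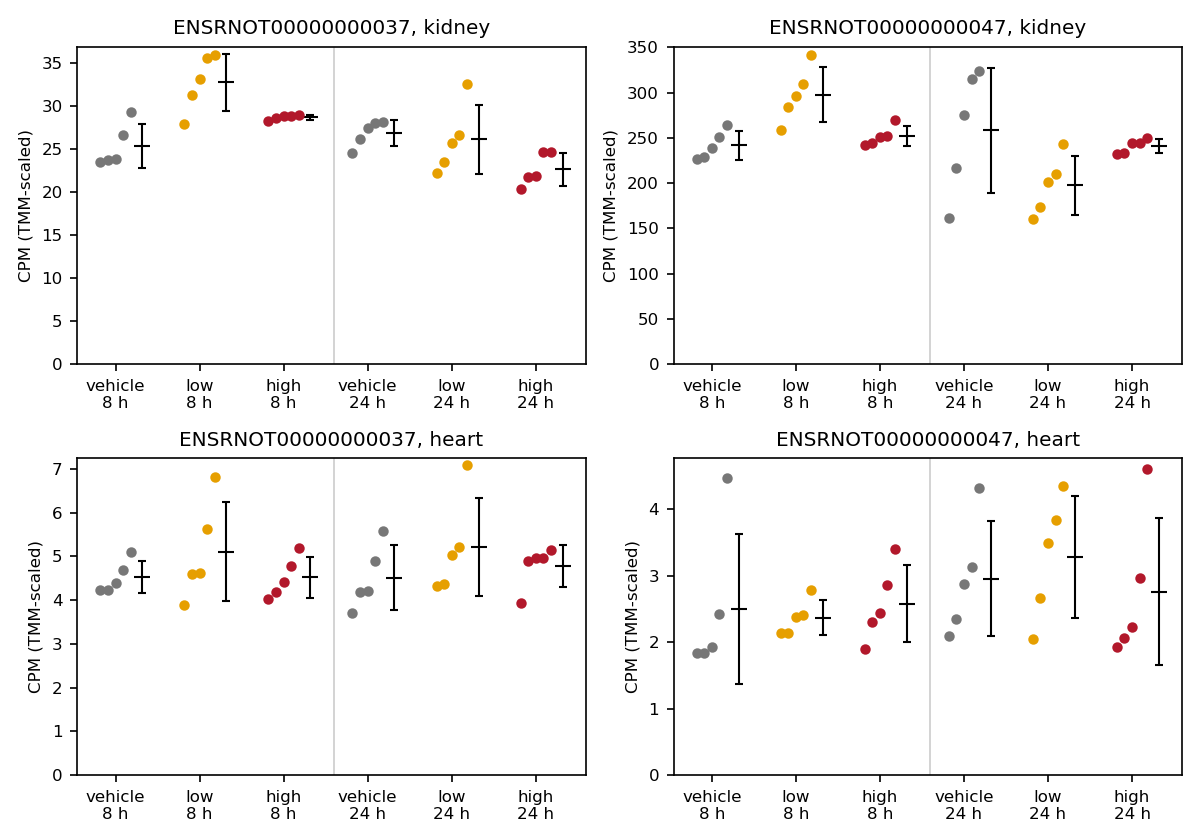
TMM-scaled CPM of each transcript in each kidney and heart library (points), by dose and hours after injection, with the mean and SD of 5 libraries (black bar). Kidney values after the low dose at 8 h sit highest for ENSRNOT00000000037 (27.9 to 35.97 CPM), and dose groups in heart overlap.

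**Figure D5:**
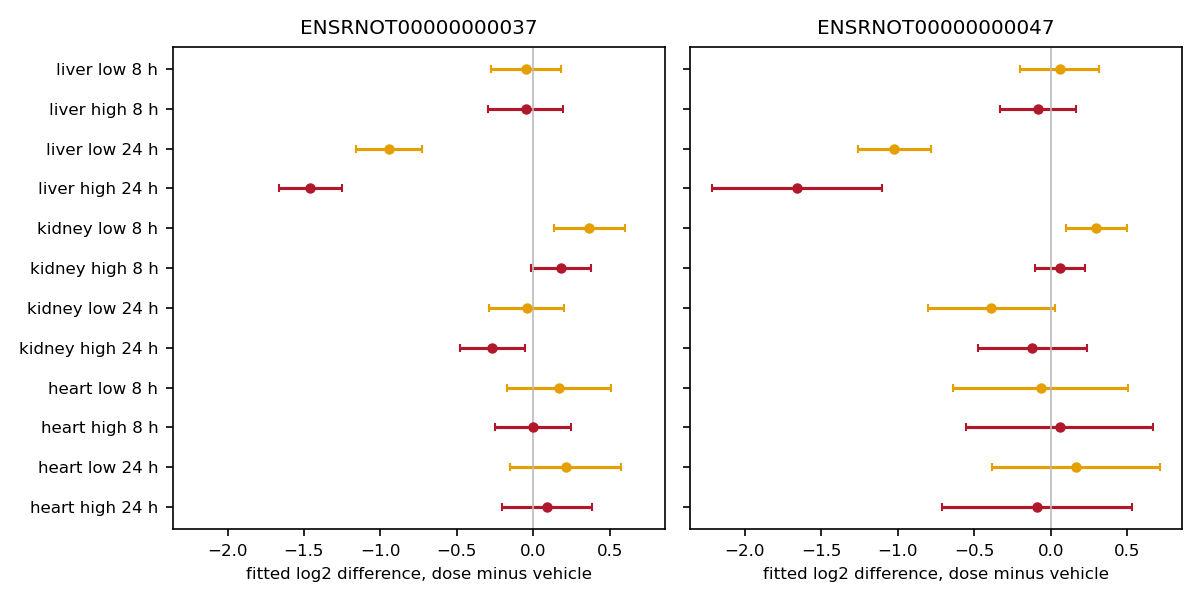
Fitted log2 difference from the matching vehicle group with its 95% interval, for 12 comparisons per transcript (low dose in orange, high dose in red; vehicle at 24 h in liver has 4 libraries, all other groups 5). The 24-h liver values, which chose the transcripts, lie at -0.94 to -1.66, and the kidney and heart values between -0.39 and 0.37. The liver intervals do not allow for that choice and are not read as tests.

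The ratio of the transcripts within a library was compared with vehicle in kidney and heart, a measure added after the values were seen. The 8 differences of the log2 ratio lay between -0.30 and 0.19. By a two-sided exact permutation test of 5 against 5 libraries, the lowest p was 0.0873 and the lowest adjusted over 8 comparisons 0.476, where the smallest p this design allows is 0.00794. The largest of these differences, in kidney after the low dose at 24 h, was -0.30, from 3.47 ± 0.36 (SD, n = 5) in vehicle to 3.17 ± 0.13 (SD, n = 5).

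Whether the transcripts varied together from animal to animal was examined on deviations of log2(TPM + 1) from the group means. The permutations moved deviations freely between groups and did not allow for the group means taken out. The permutation p-values are therefore somewhat too small, and one near 0.05 cannot be taken as a pass. In kidney, Pearson's r was 0.45 (permutation p = 0.0119, 0.0357 adjusted over 3 organs) and Spearman's rho 0.54 (permutation p = 0.00255, adjusted 0.00765) over 30 libraries, and r was 0.42 without the 2 libraries farthest from the median. Without the 8 libraries numbered above 90, r was 0.33 (permutation p = 0.135), so the relation did not pass within the other 22. On TPM, the scaling of a library moves both transcripts together. On TMM-scaled CPM r was 0.49 (permutation p = 0.00693, adjusted 0.0208) and rho 0.40 (permutation p = 0.0295, adjusted 0.0884). In liver r was 0.37 (permutation p = 0.046, adjusted 0.069) and rho 0.30 (permutation p = 0.108) over 29 libraries. It rested on 2 libraries, since r was 0.01 without the 2 farthest from the median, and on TMM-scaled CPM it was -0.20. In heart r was -0.05 (permutation p = 0.772) and rho -0.02 over 30 libraries.

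The transcripts whose TPM patterns were most like the members' were found by Pearson's r on log2(TPM + 1), as a description. Over the 29 liver libraries, ENSRNOT00000042860 (r = 0.85), ENSRNOT00000002072 (0.81) and ENSRNOT00000085382 (0.80) were closest to ENSRNOT00000000037 among 18936 others. ENSRNOT00000075107 (0.82), ENSRNOT00000051751 (0.80) and ENSRNOT00000041925 (0.80) were closest to ENSRNOT00000000047. Of these, ENSRNOT00000042860 was very abundant in liver, with a mean TPM of 10246 in vehicle livers at 8 h. At 24 h it had 8035 in vehicle livers and 4908 after the high dose. In 8-h vehicle kidney and heart it had only 3.44 and 0.396. The closest to ENSRNOT00000000047 had 98.2 TPM in the 8-h vehicle livers, 88.3 in the 24-h vehicle livers and 52.9 in the 24-h high-dose livers. In 8-h vehicle kidney it had 0.778, unlike the member itself. The members' own r in liver was 0.69, which ranked ENSRNOT00000000047 96th for ENSRNOT00000000037. All these libraries carry the shift of the TPM median with dose described above.

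Over the means of the 18 groups, the closest to ENSRNOT00000000037 were ENSRNOT00000058367 (r = 0.99), ENSRNOT00000028102 (0.99) and ENSRNOT00000020325 (0.99), and to ENSRNOT00000000047 ENSRNOT00000012075, ENSRNOT00000005844 and ENSRNOT00000067700 (r of 0.998, 0.997 and 0.997). ENSRNOT00000058367 had a mean TPM of 52.1 in the 24-h vehicle livers, 20.6 after the low dose and 11.6 after the high dose, against 86.8 in 8-h vehicle kidney and 0.0282 in heart. ENSRNOT00000012075 had 1497, 1054 and 780 TPM in the 24-h livers in the same order, and 667 in kidney and 1.60 in heart at 8 h. The r between the members over group means was 0.95. The 18 means include the 6 heart groups at their low level, and this r ranked ENSRNOT00000000047 246th for ENSRNOT00000000037 and ENSRNOT00000000037 468th for ENSRNOT00000000047.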

How the data were processed

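RNA-seq of 90 rat libraries (5 for each organ, dose and time) was analysed. Per the paper's methods and processing notes, the authors pseudo-aligned 75-base read pairs from stranded poly-A libraries with kallisto 0.42.2 to the Ensembl rat transcriptome (Rnor_6.0). They deposited, for each of 65166 targets, a length, an effective length, an estimated count that is not normalized, and a TPM, scaled by length and library over all targets, 25095 genomic intervals included.

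From these, the 40071 transcripts were kept, and estimated counts were rounded. Each organ and contrast was fitted over all transcripts that passed edgeR's default count filter, which both members passed in every fit, with TMM scaling and the quasi-likelihood test (edgeR 4.0.16, R 4.3.3), and p-values were Benjamini-Hochberg adjusted over all of them. A call needed an adjusted p of at most 0.01 and, except for interactions, a log2 difference of at least 0.866. Libraries of an organ were scaled together for the CPM per library. Alternatives were DESeq2 1.42.0, limma 3.58.1 on TPM (log2 with a pseudocount of 1 or of 0.1), no filter, all 15 libraries of an organ and time, and leaving out each library in turn. Correlations used 100000 permutations of the deviations over all groups of an organ, and Python 3.11.15 with scipy 1.17.1 and pandas 2.3.3. The fits were also run on simulated data. The planted changes there were larger than the kidney and heart dose differences given here, and differences of that size were not simulated. Total counts per library were 16332764 to 36303248, and intervals cover the spread between libraries. Per the paper's methods, the 5 libraries of a group came from 5 rats.

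The members, lists and tests were chosen with earlier results of these data known. The rule for naming other transcripts was the 3 with the highest r for each member, over 29 liver libraries and over 18 group means. Gene and marker lists were not used here, since no table at hand pairs the identifiers with genes; the RefSeq gene table (GRCr8) matched 0 of the 2 members.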

Additional observations from a re-analysis of the deposited data

Results flagged for a closer look

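In 36 groups looked at, 2 transcripts by 18 groups, 3 had a library set apart from the rest of its group by more than Dixon's 95% criterion allows; chance gives about 1 in 20. In liver after the high dose at 24 h, MS-91 had a CPM of 7.24 for ENSRNOT00000000037, against 8.87 to 9.03 in the other 4. In heart after the high dose at 24 h, MS-85 had 3.94 for the same transcript, against 4.89 to 5.15, and rested on 83 counts. In vehicle hearts at 8 h, MS-89 had 4.48 for ENSRNOT00000000047, against 1.84 to 2.43, and rested on 61.2 counts.

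For ENSRNOT00000000037 after the low dose at 8 h, every kidney lay above its vehicle mean, and every liver lay below its vehicle mean on TMM-scaled CPM, with a liver log2 ratio of means of -0.052. The liver vehicle mean was 23.03 with MS-29 at 28.7, and the vehicle median (22.2) lay just under the low-dose median (22.3). On mean TPM and unscaled CPM the liver ratio had the other sign, 0.25 and 0.29. The difference between the organs was not tested.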

How the results depend on the processing

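In the following, values are log2 differences, given for ENSRNOT00000000037 and ENSRNOT00000000047 in that order unless one is named, and the cause of each change was not tested. In liver at 24 h, mean TPM gave -0.14 and -0.19 after the low dose and -0.38 and -0.60 after the high dose, and CPM of the raw total gave -0.42 and -0.48, and -0.59 and -0.82; all kept their direction. In liver at 8 h, mean TPM gave 0.25 and 0.35 after the low dose and 0.14 and 0.12 after the high dose, and CPM of the raw total 0.29 and 0.39, and 0.11 and 0.080. Of these, the values of ENSRNOT00000000037, and that of ENSRNOT00000000047 after the high dose, changed sign. Between vehicle livers at 24 and 8 h, mean TPM gave -0.20 and 0.047. The median over all transcripts also moved with the scale in the treated livers, as given with the liver values. Its part in these changes was not tested. Keeping MS-1, removing MS-9 or leaving out any 1 liver library moved no liver value by more than its SD between libraries.

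In kidney and heart no dose effect was called under any alternative. With limma on log2(TPM + 1) and log2(TPM + 0.1), these uncalled values changed sign: ENSRNOT00000000037 in kidney after the low dose at 24 h (0.11 and 0.13) and in heart after the high dose at 8 h (0.012 and 0.023), and ENSRNOT00000000047 in kidney after the high dose at 24 h (0.096 and 0.098) and in heart after the low dose at 8 h (0.018 and 0.070). So did the interactions of ENSRNOT00000000047 in kidney after the high dose (0.035 and 0.036) and of ENSRNOT00000000037 in heart after the low dose (-0.022 and -0.039), and the difference between vehicle hearts at 24 and 8 h for ENSRNOT00000000037 (0.025 and 0.040). DESeq2 called the high-dose interaction of ENSRNOT00000000037 in kidney (-0.45, adjusted p = 0.00324). Liver minus kidney on the same limma scales was -0.24 and -0.29 for ENSRNOT00000000037, of the other sign, and 0.40 on both for ENSRNOT00000000047, no longer called.

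Leaving out 1 library at a time ended or made no call. It carried these values across 0: ENSRNOT00000000037 in liver at 8 h after the low dose (-0.12 to 0.040) and the high dose (-0.15 to 0.0097) and between vehicle livers (-0.079 to 0.083), ENSRNOT00000000047 in liver after the low dose at 8 h (-0.0098 to 0.11), ENSRNOT00000000037 in kidney after the low dose at 24 h (-0.13 to 0.0073) and in heart after the high dose at 8 h (-0.056 to 0.044), in the low-dose heart interaction (-0.088 to 0.16) and between vehicle hearts (-0.090 to 0.061); and ENSRNOT00000000047 in heart after the low dose at 8 h (-0.16 to 0.24), after the high dose at 8 h (-0.064 to 0.36) and at 24 h (-0.36 to 0.084), in the heart interactions after the low dose (-0.077 to 0.40) and the high dose (-0.45 to 0.024), and between vehicle kidneys (-0.0054 to 0.22). Of the 30 uncalled kidney and heart values, another 10 moved by over 1.5 times without crossing 0.

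For the correlation of the members within groups, liver r was -0.20 on TMM-scaled CPM and 0.45 with MS-1 kept (permutation p adjusted 0.0191), heart r was 0.10 on TMM-scaled CPM, and kidney r was 0.33 without the libraries numbered above 90, no longer past 0.05. The permutation p-values are somewhat too small, as said with the main values. A fit with a replicate block for matched library numbers (kidney less 30, heart less 60), chosen after seeing the data, gave 0.66 and 1.38 for liver minus kidney, 2.80 and 7.65 for liver minus heart and 2.14 and 6.27 for kidney minus heart, and changed no call. Over 16693 transcripts, deviations from the group means of the 68 matched pairs of libraries had a median r of 0.13 (-0.16 to 0.47), with 41 over 0.1 and 40 the best match of their library, against -0.02 in 372 other pairs of the same dose and time, with 51 over 0.1. This is a hint from the data, not from the design. Within an organ no 2 groups share a number, so dose and time comparisons could not be blocked.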
